A study of Arabidopsis thaliana with 4 samples.

Results

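The 10 genes described here are the heat-inducible chaperone genes HSP90.1, HSP101, HSP70, HSP17.4, HSP18.2, HSP17.6, HSP17.6II, HSP21 and HSP22, and HSFA2, which codes for a heat shock transcription factor. They were chosen by gene identifier from the 37336 genes of the deposited table, as genes that heat is known to induce. The RNA-seq experiment compared wild-type Arabidopsis thaliana seedlings of the Columbia-0 (Col-0) accession with s2lb-2 seedlings, which carry an insertion in S2Lb, with 2 libraries per genotype. S2Lb is a WD40-repeat protein related to the yeast Swd2 subunit of COMPASS, the complex that trimethylates histone H3 on lysine 4. Whole seedlings of both genotypes were 6 days old and had grown on sugar-free MS agar under 16 h of light at 23 °C and 8 h of darkness at 19 °C, about 12 seedlings for each RNA extract. The sources name no heat treatment, so all values below are levels at growth temperature. The s2lb-2 plants represent a single insertion allele, first isolated in the Nossen accession and then backcrossed repeatedly to Col-0, and the replicates of a genotype came from different seed batches. A genotype label of the s2lb-2 libraries names a tagged SDG2 line instead, and the titles and the methods of the study were followed here.

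When proteins unfold in the heat, plant cells build up chaperones of several families. Heat shock factors (HSFs) bind heat shock elements, short repeats of the block GAA and its reverse complement TTC, in front of chaperone genes and switch these genes on. In Arabidopsis the HSFA1 factors are present before heat and start the response, whereas HSFA2 is itself made upon heat and prolongs it. The small heat shock proteins hold unfolded proteins in a form that can still be refolded, HSP70 and HSP90 proteins fold and mature client proteins, and HSP101 pulls aggregates apart. Without heat most small HSP genes are nearly silent in leaves and roots, although several are also known to be expressed in maturing seeds.

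Matches to the heat shock element were looked up first, as the sequence feature that heat-inducible genes are known to share. The letters searched were the pairs GAANNTTC and TTCNNGAA, where N is any base, on both strands (each is its own reverse complement), and the longer run of 3 alternating blocks, each separated from the next by a pair of bases. The run contains one pair of each kind, so its matches overlap those of the pairs. In the 500 bases before the first coding base, a window chosen after the matches at the gene starts had been seen, all 10 genes held at least 1 pair, compared to 33.9% of the 27443 protein-coding genes with such a window in the TAIR10.1 genome of RefSeq. The run of 3 blocks lay in this window of 7 of the 10 genes and of 1.20% of all windows. In the window from 250 bases before to 50 bases after the annotated gene start, 6 of the 10 genes held a pair, compared to 19.3% of all windows, and 4 held the run, compared to 0.481%. A match is a description of the sequence and does not show that a factor binds there.

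The stretches of 30 bases below are shown for the 4 most strongly read genes with a run, for HSP22, which was barely read but holds one too, and for HSP101, which holds a pair without a run. Each is written 5′ to 3′ on the strand of the gene, and capitals mark the run of 3 blocks or, for HSP101, the pair.
HSP70: ttactcgtGAACGTTCTCGAAagctctttg
HSP90.1: aacgaaaaGAACTTTCTGGAAttcgtttgc
HSP18.2: caacaaacGAAACTTCCTGAAatgccaaga
HSFA2: ttagtaacGAAGTTTCTGGAAcattgtctt
HSP22: aaagatatTTCAAGAAACTTCttcattctt
HSP101: ataaaataagcGAAAATTCcacgtgacatc
In TAIR10.1 these stretches are chr3:3993845-3993874 (HSP70, minus strand), chr5:21352254-21352283 (HSP90.1, plus strand), chr5:24062388-24062417 (HSP18.2, plus strand), chr2:11135528-11135557 (HSFA2, plus strand), chr4:6370379-6370408 (HSP22, plus strand) and chr1:27940322-27940351 (HSP101, minus strand). Those of HSP90.1 and HSFA2 lie before the annotated gene, and the other 4 lie within the first annotated exon, before the coding sequence. The annotated model of HSP90.1 starts at its first coding base, so its untranslated leader is not part of it. The runs start 177 bases before the first coding base in HSP70, 295 bases in HSP90.1, 236 bases in HSP18.2, 320 bases in HSFA2 and 150 bases in HSP22, and the pair of HSP101 starts 478 bases before it. HSP17.4, with 2 runs, and HSP17.6, with 1, complete the 7 genes that hold a run, and HSP17.6II and HSP21 hold only pairs.

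**Figure D1:**
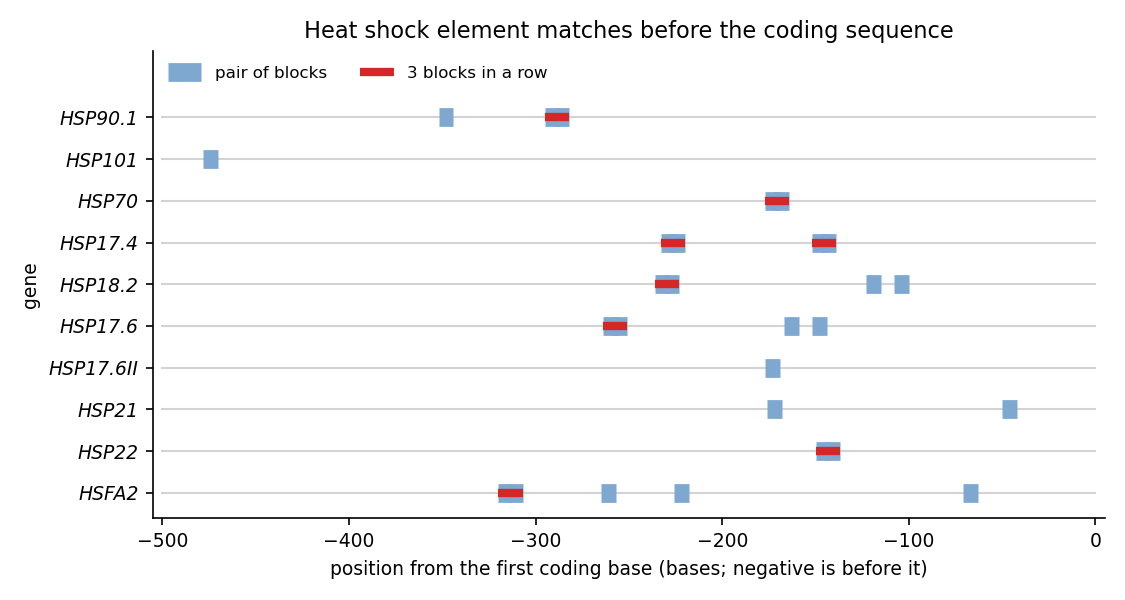
Positions of heat shock element matches in the 500 bases before the first coding base of each of the 10 genes, with the distance from that base in bases on the x axis. Wide blue bars are pairs of blocks and narrow red bars are runs of 3 blocks; 7 genes hold a run, and HSP101, HSP17.6II and HSP21 hold only pairs.

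The libraries held between 34325097 and 39114300 reads on genes. The mutated gene S2Lb (AT5G66240, chromosome 5, 26466172 to 26468484, plus strand in TAIR10.1) showed 1337 and 1613 normalized counts in wild-type libraries, compared to 80.8 and 67.2 in those of s2lb-2, and the log2 fold change was -4.30 (limma, adjusted p = 0.0062). A normalized count is the number of reads on a gene divided by the size factor of its library. The limma test between genotypes used log2(normalized count + 1), and on this scale the fold change of weakly read genes depends on the added 1. A p-value adjusted after Benjamini and Hochberg over all tested genes under 0.01 was the threshold of a call. As markers of tissue, 3 genes of green tissue and the root and hypocotyl gene PYK10 were all strongly read, and their summed normalized counts were 2039111 and 1982962 in wild-type and 1904916 and 1711410 in s2lb-2 seedlings. PYK10 stood at 74.9% (limma, adjusted p = 0.129) and LHCB1.3, a light-harvesting gene, at 77.2% (limma, adjusted p = 0.301) of the wild-type mean, and the other green tissue genes, RBCS1A and RCA, at 89.5% and 111%. The part of these markers in the values below was not tested. In whole seedlings, fewer cells of a type and less RNA per cell cannot be told apart.

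Without heat, the 10 genes fell into a readily measured and a barely measured group. HSP70, HSP101, HSP90.1, HSP18.2 and HSFA2 had mean normalized counts of at least 10, and HSP17.4, HSP17.6, HSP17.6II, HSP21 and HSP22 lay below 10. All 10 together took 1488 and 1592 reads in the wild-type and 1704 and 1823 in the s2lb-2 libraries, which is 42.3 and 40.7 RPM compared to 44.2 and 53.1 RPM, with the reads on genes as the total. The 5 weak genes accounted for only 12 to 21 of these reads per library. Per transcript length, as TPM (reads per exon length, scaled to the same total in each library) averaged over wild type, the order of levels was HSP70 (14.7), HSP90.1 (4.68), HSP101 (4.08), HSP18.2 (3.25), HSFA2 (0.711), HSP17.6 (0.305), HSP17.4 (0.180), HSP17.6II (0.148), HSP21 (0.0457) and HSP22 (0.0217). The wild-type TPM of HSP90.1 (4.72 and 4.64) lay above that of HSP101 (3.97 and 4.18), and neighbours from HSP70 down to HSP17.6 did not overlap. In the s2lb-2 libraries the TPM was 15.5 and 16.4 for HSP70, 6.72 and 9.94 for HSP90.1, 4.17 and 5.79 for HSP101, 1.88 and 1.55 for HSP18.2 and 0.691 and 1.26 for HSFA2, so these 5 genes kept their order within each library. The genes from HSP17.6 down rested on 0 to 8 reads per wild-type library, and their order differed by less than these reads can resolve.

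**Figure D2:**
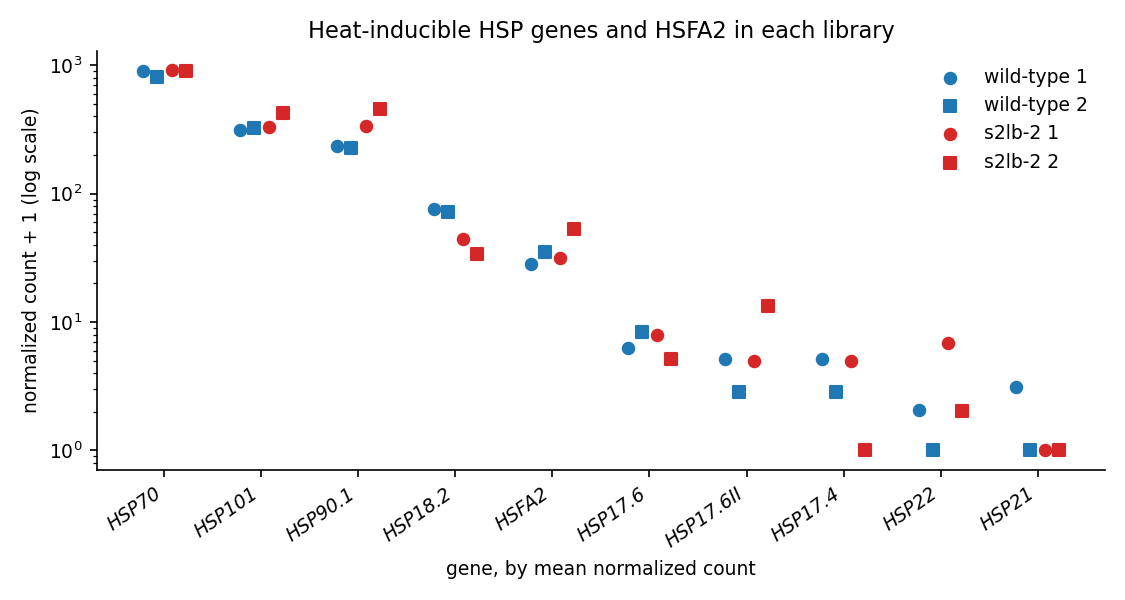
Normalized count + 1 of the 10 genes in each of the 4 libraries, on a logarithmic y axis, with genes ordered by their mean. Blue points are wild-type and red points s2lb-2 libraries, and circles and squares are replicates 1 and 2; HSP90.1 is higher and HSP18.2 lower in both s2lb-2 libraries than in both wild-type libraries, and 5 genes lie below a mean of 10.

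None of the 10 genes was called between the genotypes. Limma tested 9 of them and left out HSP21, whose mean lay below 1, and 0 of 9 had an adjusted p under 0.01, compared to 0.122% of the 23723 genes tested. At an unadjusted p under 0.05 limma gave 2 of 9, HSP90.1 with higher and HSP18.2 with lower values in s2lb-2, and 17.4% of all genes passed the same limit. DESeq2 on the recovered reads called 0 of the 8 that had an adjusted p (3.12% of all genes) and gave 2 at an unadjusted p under 0.05 (13.5% of all genes). The quasi-likelihood test of edgeR called 0 of 9 (0.177% of all genes) and likewise gave 2 at an unadjusted p under 0.05 (17.1% of all genes). The median log2 fold change of the 9 genes was 0.24, beside -0.002 for all tested genes. Both s2lb-2 libraries lay above both wild-type libraries for 3 of 9 genes (24.8% of all genes) and below them for 1 of 9 (24.7% of all genes). With 2 libraries per genotype, the intervals given below are wide for all but the most strongly read genes.

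**Figure D3:**
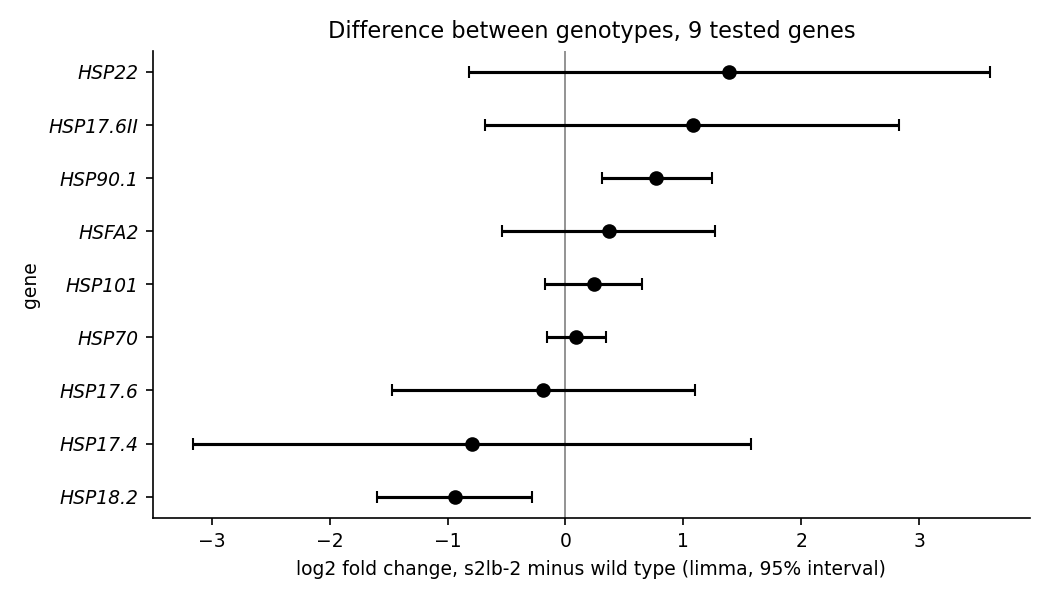
Log2 fold change between s2lb-2 and wild-type seedlings for the 9 tested genes, with points for the limma estimate and bars for its 95% interval. The interval lies above 0 for HSP90.1 and below 0 for HSP18.2 and includes 0 for the other 7, and no gene passed the adjusted threshold.

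HSP90.1 (AT5G52640, chromosome 5, 21352557 to 21355147, plus strand) codes for the heat-inducible cytosolic HSP90, which matures signalling proteins and other clients. Wild-type seedlings had 232 and 224 normalized counts and s2lb-2 seedlings 333 and 456. The genotypes did not overlap, and the s2lb-2 libraries lay further from each other than the wild-type libraries did, with means of 395 ± 87.1 compared to 228 ± 5.72 (SD, n = 2). The log2 fold change was 0.77 (standard error 0.186, 95% interval 0.31 to 1.24), a fold of 1.73, and it did not pass the threshold (limma, adjusted p = 0.126). Within replicate numbers the ratio of s2lb-2 to wild type was 1.44 and 2.04. The other cytosolic HSP90 genes are expressed without heat. HSP90.2 had a log2 fold change of 0.02, HSP90.3 of 0.18 and HSP90.4 of 0.06. Of their stretches of 50 bases, 18.9%, 24.8% and 19.5% occur elsewhere in the genome, so reads from these cannot be assigned to a single gene.

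HSP70 (AT3G12580, chromosome 3, 3991117 to 3993886, minus strand), a heat-inducible cytosolic HSP70, was the most strongly read of the 10 genes. Its normalized count was 898 and 816 in wild-type and 921 and 902 in s2lb-2 seedlings. These values lay close together in all 4 libraries, and the wild-type libraries differed more from each other than the genotype means of 857 ± 58.6 and 911 ± 13.5 did (SD, n = 2). The log2 fold change was 0.09, with a 95% interval from -0.16 to 0.34, the narrowest of the 9 genes.

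HSP101 (AT1G74310, chromosome 1, 27936508 to 27940369, minus strand) codes for the disaggregase that seedlings need to acquire tolerance to heat. It had normalized counts of 312 and 322 in wild-type and of 330 and 425 in s2lb-2 seedlings. Both s2lb-2 libraries lay above both wild-type libraries, the first of them by less than the wild-type libraries differed from each other, and the log2 fold change of 0.24 (95% interval -0.17 to 0.65) did not pass the threshold (limma, adjusted p = 0.51). HSP101 shares 101 bases with AT1G74300 on the opposite strand, and 0.196% of its stretches of 50 bases occur elsewhere in the genome. This leaves the assignment of a few reads uncertain.

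HSFA2 (AT2G26150, chromosome 2, 11135624 to 11137792, plus strand), the only transcription factor of the set, had normalized counts of 27.3 and 34.4 in wild-type and of 30.5 and 51.7 in s2lb-2 seedlings. The genotypes overlapped, and the highest value was that of the second s2lb-2 library. Its log2 fold change was 0.37, with a 95% interval from -0.54 to 1.27 (limma, adjusted p = 0.658). Without the second s2lb-2 library the estimate was 0 to the second decimal, so the difference of the means rested on this library.

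The 4 HSFA1 genes, whose products start the heat response, were read at higher levels than HSFA2. HSFA1A had normalized counts of 173 and 196 in wild-type and of 209 and 246 in s2lb-2 seedlings, with a log2 fold change of 0.30. For HSFA1B the counts were 563 and 524 compared to 417 and 425, and the log2 fold change was -0.37 (95% interval -0.65 to -0.09, limma, adjusted p = 0.192). HSFA1D (log2 fold change 0.03) and HSFA1E (log2 fold change -0.06) had overlapping genotypes. In wild-type seedlings the mean TPM of the HSFA1 genes was between 2.87 (HSFA1E) and 11.7 (HSFA1B).

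The 6 small HSP genes of the set comprise HSP17.4, HSP17.6 and HSP18.2, which code for cytosolic class I proteins, HSP17.6II for a cytosolic class II protein, HSP21 for a plastid protein and HSP22 for a protein of the endoplasmic reticulum. HSP18.2 (AT5G59720, chromosome 5, 24062323 to 24063300, plus strand) was the only one of them with more than a few reads. Its normalized count was 75.6 and 71.5 in wild-type and 43.3 and 33.1 in s2lb-2 seedlings, from 72, 77, 44 and 32 reads. Both s2lb-2 libraries lay below both wild-type libraries, and the means were 38.2 ± 7.24 and 73.5 ± 2.86 (SD, n = 2), or 52.0% of the wild-type level. The log2 fold change was -0.94 (standard error 0.263, 95% interval -1.60 to -0.28), and it did not pass the threshold (limma, adjusted p = 0.168). HSP18.2 and HSP90.1, which both hold a run of 3 blocks, thus lay on opposite sides of their wild-type levels. Both lie on chromosome 5, as S2Lb does, with gene positions from 24062323 (HSP18.2), 21352557 (HSP90.1) and 26466172 (S2Lb). Whether Nossen sequence remains around the insertion in s2lb-2 plants, and its part in these values, was not tested.

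The 5 other small HSP genes had 0 to 12 reads per library, and for HSP17.6, HSP17.4, HSP22 and HSP21 a difference between genotypes was not detectable at this depth. HSP17.6 (AT1G53540, chromosome 1, 19980299 to 19981199, plus strand) had 5 and 8 reads in the wild-type and 7 and 4 reads in the s2lb-2 libraries, a ratio of normalized sums of 0.866 with an exact 95% interval from 0.351 to 2.10. HSP17.4 (AT3G46230, chromosome 3, 16984118 to 16984867, minus strand) had 4 and 2 reads compared to 4 and 0, a ratio of 0.683 with an interval from 0.142 to 2.88. On the opposite strand, the non-coding gene AT3G07365 covers 453 bases of HSP17.4, and the protein-coding gene AT3G46220 covers 60 bases. The sources do not state which strand the reads were counted on. Reads in these stretches may thus have been left out of the count of HSP17.4 or assigned to the other genes. Reads of those genes may also have been counted for HSP17.4.

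HSP17.6II (AT5G12020, chromosome 5, 3882231 to 3883111, minus strand) had 4 and 2 reads in wild-type and 4 and 12 reads in s2lb-2 seedlings, and its ratio of 2.73 had an exact 95% interval from 1.01 to 8.52. All of the excess lay in the second s2lb-2 library, and limma, which takes in the spread between libraries, gave a log2 fold change of 1.08 with an interval from -0.68 to 2.83. HSP22 (AT4G10250, chromosome 4, 6370338 to 6371372, plus strand) had 1 and 0 reads compared to 6 and 1, a ratio of 7.17 with an interval from 0.921 to 323. Here the excess lay in the first s2lb-2 library, so the libraries that were high for HSP22 and for HSP17.6II were not the same. HSP21 (AT4G27670, chromosome 4, 13818825 to 13819971, minus strand) had 2 reads in the first wild-type library and 0 in the other 3, which is at or under the floor of 3 reads per genotype, so no fold is given. The exact intervals cover counting error only and leave out the spread between seed batches.

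The 10 genes did not order the libraries in one way. HSP90.1, HSP101, HSP17.6II and HSFA2 had their highest normalized count in the second s2lb-2 library, HSP70 and HSP22 in the first s2lb-2 library, HSP17.4, HSP18.2 and HSP21 in the first and HSP17.6 in the second wild-type library. Averaged over the 10 genes, the centred log2 values were 0.13 and -0.25 for wild-type libraries 1 and 2, and 0.16 and -0.05 for s2lb-2 libraries 1 and 2, with no order by genotype. This average gives each gene the same weight, so it rests largely on the 5 genes with a few reads per library, and the nearest profiles below rest on it too. The summed normalized counts of the 10 genes, most of which belong to HSP70, HSP101 and HSP90.1, were 1562 and 1479 in wild-type and 1678 and 1885 in s2lb-2 seedlings and did not overlap. Among 17909 other genes with a mean of at least 50, the 5 whose profile over the 4 libraries lay nearest by Euclidean distance were AT1G66810 (distance 0.0231), AT3G62590 (0.0277), COI1 (0.0361), EIF4B2 (0.0362) and PDV1 (0.0388). A profile of 4 libraries is a weak measure of likeness, and the genotypes overlapped in all 5.

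To set the 10 genes among their relatives, 6 lists of the heat response were read: the small HSP, HSF, HSP90, HSP70 and HSP100 families and 17 heat-induced HSF targets and co-chaperones. These lists held 71 genes beside the 10, of which 67 were tested and 0 were called by limma (0.122% of all genes) or edgeR (0.177% of all genes). At an unadjusted p under 0.05 limma gave 15 of the 67 with higher values in s2lb-2 (8.46% of all genes) and 7 with lower values (8.90% of all genes), and edgeR gave 21 of 67 in either direction (17.1% of all genes). DESeq2 called 6 of the 67, all with higher values in s2lb-2 (1.33% of all genes). The median log2 fold change of the 67 genes was 0.12.

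**Figure D4:**
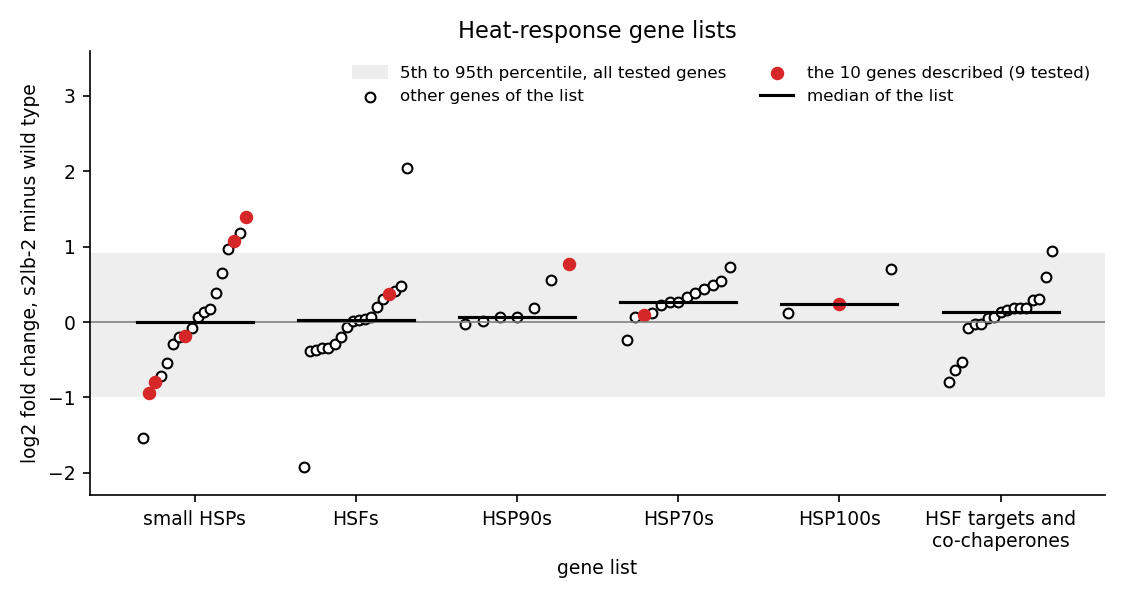
Log2 fold change between s2lb-2 and wild-type seedlings for every tested gene of the 6 heat-response lists, with red points for the genes described here, open points for the others and a line for each list's median. The grey band runs from the 5th to the 95th percentile of all tested genes (-0.98 to 0.90); most points lie within it, and HSFA6A, at 2.05, and HSFA6B, at -1.92, lie furthest outside it.

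Within the small HSP family, 13 genes beside the 6 above were tested, and 7 had a log2 fold change above 0. At an unadjusted p under 0.05 limma gave 2 with higher values in s2lb-2 (8.46% of all genes) and 2 with lower values (8.90% of all genes). The lower ones were AT4G21870 (702 and 848 compared to 390 and 573, log2 fold change -0.71) and the weakly read HSP17.6A (18.9 and 9.29 compared to 4.92 and 3.10, log2 fold change -1.54). The class I gene AT2G29500 had normalized counts of 172 and 209 in wild-type and of 328 and 421 in s2lb-2 seedlings, with a log2 fold change of 0.97 (limma, adjusted p = 0.0888 and DESeq2, adjusted p = 0.00518). AT1G59860, another class I gene, had counts of 31.5 and 30.7 compared to 59.1 and 86.9, with a log2 fold change of 1.18 (limma, adjusted p = 0.135). Thus the class I genes AT2G29500 and AT1G59860 had higher values and HSP18.2 lower values in both s2lb-2 libraries, and none of these differences passed the threshold in limma.

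The HSF family held 20 genes beside HSFA2, of which 17 were tested, with a median log2 fold change of 0.02. HSFA6A and HSFA6B, factors known to respond to salt, drought and abscisic acid, differed most. Normalized counts of HSFA6A were 16.8 and 6.50 in wild-type and 66.0 and 33.1 in s2lb-2 seedlings (log2 fold change 2.05, limma, adjusted p = 0.165). Those of HSFA6B were 39.9 and 24.2 compared to 3.94 and 13.4 (log2 fold change -1.92, limma, adjusted p = 0.209). These close relatives lay on opposite sides of wild type, and with each library left out in turn the log2 fold change ranged from 1.43 to 2.67 for HSFA6A and from -2.70 to -1.15 for HSFA6B.

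In the HSP90, HSP70 and HSP100 families, the genes with the largest log2 fold changes beside HSP90.1 and HSP101 included chaperones of the plastid. HSP90.5, the plastid HSP90, had normalized counts of 9437 and 11167 in wild-type and of 15414 and 14950 in s2lb-2 seedlings (log2 fold change 0.56, limma, adjusted p = 0.0798 and DESeq2, adjusted p = 0.00165). CLPB3, the plastid relative of HSP101, had counts of 5151 and 4624 compared to 8299 and 7587 (log2 fold change 0.70, limma, adjusted p = 0.0379 and DESeq2, adjusted p = 7.43e-06). For cpHSC70-2, a plastid HSP70, the counts were 14722 and 13751 compared to 20957 and 20379, with a log2 fold change of 0.54. HSP70-2, a cytosolic HSP70 gene, had counts of 574 and 596 compared to 979 and 958, with a log2 fold change of 0.73 (limma, adjusted p = 0.0377 and DESeq2, adjusted p = 0.00015). The 6 genes called by DESeq2 were these 4, AT2G29500 and cpHSC70-1, a second plastid HSP70 that is named because it completes the count, with 16835 and 16992 compared to 23993 and 21853 normalized counts. None of the 6 passed the threshold of limma, the main test.

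Of the 17 heat-induced HSF targets and co-chaperones, 11 lay above wild type and 3 below it in both s2lb-2 libraries (24.8% and 24.7% of all genes), and their median log2 fold change was 0.13. Among those with a mean of at least 10, the largest differences were of the second kind, while the weakly read APX2 had a log2 fold change of 0.94 from normalized counts of 4.20 and 1.86 in wild-type and 4.92 and 8.27 in s2lb-2 seedlings. ROF2, a heat-induced immunophilin, had normalized counts of 276 and 295 in wild-type and of 180 and 150 in s2lb-2 seedlings, with a log2 fold change of -0.79 (limma, adjusted p = 0.0996). GOLS1, a galactinol synthase gene controlled by HSFs, had counts of 190 and 177 compared to 126 and 110, with a log2 fold change of -0.64 (limma, adjusted p = 0.165). MBF1C had counts of 167 and 152 compared to 209 and 282, with a log2 fold change of 0.60 (limma, adjusted p = 0.22). At an unadjusted p under 0.05 limma gave 2 of the 17 with higher values in s2lb-2 (8.46% of all genes) and 3 with lower values (8.90% of all genes). Thus ROF2 and GOLS1 lay with HSP18.2 on the lower side, and MBF1C with HSP90.1 on the higher side, of wild type.

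Markers of other tissues and of handling differed between libraries. Since several small HSP genes are also expressed in maturing seeds, 14 seed storage and late embryogenesis genes were summed, and their summed normalized counts were 632 and 203 in wild-type and 361 and 76.5 in s2lb-2 seedlings, with 1, 2, 0 and 4 of the genes at 0. OLEO2, an oil body protein of seeds, had counts of 45.1 and 17.6 compared to 2.95 and 0, and PER1, a seed peroxiredoxin, of 29.4 and 45.5 compared to 9.85 and 0. The seed genes did not all go this way, as 5 of the 13 tested had a log2 fold change above 0, such as SESA3 (8.40 and 0 compared to 35.5 and 1.03). CRA1, the largest part of the sum in replicate 1 of both genotypes, had overlapping genotypes (301 and 16.7 compared to 112 and 19.7). The sum of 6 touch and wound genes was 12259 and 8927 in wild-type and 10838 and 4721 in s2lb-2 seedlings, and none of them was at 0. Among these, ZAT10 had 1890 and 569 compared to 956 and 202 normalized counts, and WRKY40 had 760 and 203 compared to 392 and 78.6. TCH4 had 3828 and 3880 compared to 3562 and 926. Of the 6 genes 1 had a log2 fold change above 0, TCH3, with 2212 and 2154 compared to 2663 and 2335. Both sums were lowest in the second s2lb-2 library, in which HSP90.1, HSP101, HSP17.6II and HSFA2 had their highest, and HSP18.2, HSP17.4 and HSP17.6 their lowest value, and the part of these markers in the values of the 10 genes was not tested.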

How the data were processed

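Polyadenylated RNA of 4 libraries was sequenced as 50-base single reads from a stranded kit. The labels and the study's methods name different RNA extraction kits. The authors mapped the reads on TAIR10 with STAR (version 2.5.4b in the submitters' processing notes), counted them per Araport11 gene and divided the counts by DESeq2 size factors. The deposited signal is this normalized count, and a second deposited table holds the authors' own comparison and was not used. No other columns of values per sample were present (0).

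Dividing by the smallest step of each library gave size factors of 0.953 and 1.08 (wild type) and 1.02 and 0.967 (s2lb-2), and 100% of values were whole reads within a tolerance of 1e-06. Limma 3.58.1 (lmFit, eBayes with trend, R 4.3.3, prior of 3.55 degrees of freedom) was fitted on log2(value + 1) with genotype as its only term over 23723 genes (mean normalized count 1 or more), and p-values were adjusted over these genes after Benjamini and Hochberg. Standard errors and 95% intervals come from this fit. DESeq2 1.42.0 and edgeR 4.0.16 on recovered reads, TMM factors, other filters and pseudocounts, a term for the replicate number, and fits without each library were the alternatives. The tests were also run on simulated data in which only more strongly read genes changed and same-numbered libraries did not deviate together. This check therefore does not cover the weak genes or a shared batch. P-values measure only the spread between these libraries.

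TPM was computed from recovered reads and RefSeq exon lengths, available for 37051 of the genes. Ratios of the weak genes have exact conditional 95% intervals, and the floor was 3 reads summed over a genotype. Positions, overlaps, 50-base repeats and sequences are from RefSeq TAIR10.1, since the deposited table holds no coordinates. The text names the 10 genes, S2Lb, the 4 HSFA1 genes, from each other list the genes past the threshold and the 2 with a mean of at least 10 and the largest absolute log2 fold change, and the 5 nearest profiles. HSP90.2, HSP90.3, HSP90.4, HSP17.6A, AT4G21870, MBF1C, SESA3, CRA1, TCH3 and TCH4 were added after their values were seen. The 10 genes, the lists and this rule were chosen with earlier results of these data known. Python 3.11.15, pandas 2.3.3, scipy 1.17.1, numpy 2.4.6 and matplotlib 3.10.9 were used.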

Additional observations from a re-analysis of the deposited data

How the results depend on the processing

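Of the 10 genes, 0 were called under any of the 12 alternatives, each from 2 libraries per genotype or fewer. The mutated gene S2Lb was itself not called with a pseudocount of 0.1 or without any single library. These settings therefore cannot decide whether one of the 10 genes differs. The count over all genes, 29, was 704 with DESeq2, 1 with a pseudocount of 0.1 and 0 without any single library. Over the heat-response lists, DESeq2 called 6 genes in place of 0. The replicate numbers are not stated to mark a shared batch. Deviations of libraries with the same number correlated at 0.178 over 23723 genes and at 0.407 over the 17913 with a mean above 50. With the replicate block 663 genes were called in all, 4 of them in the heat-response lists: AT2G29500 (limma, adjusted p = 0.00767), HSP70-2 (0.00544), cpHSC70-2 (0.00566) and CLPB3 (0.00168). The lowest adjusted p of HSP90.1 over the alternatives was 0.0297, under this block, and the highest was 0.464. HSP18.2 ranged from 0.0862 to 0.484. The median log2 fold change of the tested genes of the set ranged from 0.12 to 0.42 with each library left out in turn. In these fits, log2 fold changes ranged from -1.95 to 0.36 for HSP17.4, from -0.50 to 0.12 for HSP17.6 and from 0 to 0.74 for HSFA2, so that their sign rested on single libraries. HSP17.6II ranged from 0.36 to 1.80 and HSP22 from 0.51 to 2.27. HSFA1D ranged from -0.06 to 0.12 and HSFA1E from -0.20 to 0.09. HSP90.1 (0.54 to 1.00) and HSP18.2 (-1.13 to -0.75) kept theirs. With a library left out, the remaining one of that genotype is taken to vary as much as the other pair does.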
